A study of Mus musculus with 4 samples.

Results

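The angiomotins Amot, Amotl1 and Amotl2 and the Ajuba-family LIM proteins Ajuba, Limd1 and Wtip are 6 of the 18619 genes measured in mouse intestinal stromal cells after loss of the kinases LATS1 and LATS2. They were taken as the named genes of these families, not by their values. All 6 were detected, with 124 UMIs (unique molecular identifiers, each counting 1 captured RNA molecule) for Amot, 3874 for Amotl1, 6933 for Amotl2, 458 for Ajuba, 1933 for Limd1 and 4330 for Wtip.

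In the Hippo pathway, LATS1 and LATS2 phosphorylate the coactivators YAP and TAZ and keep them out of the nucleus, where they would otherwise act through TEAD transcription factors. Angiomotins are scaffolds of tight junctions and actin filaments that bind YAP through their PPxY motifs, hold it in the cytoplasm and help to activate LATS. Ajuba-family proteins are LIM-domain adaptors of cell junctions that bind LATS and restrain it when the cytoskeleton is under tension. Amotl2 is itself a well-known transcriptional target of YAP.

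The library analysed, LATS1/2 KO 1w, held stromal cells sorted from the small intestine of adult C57BL/6J mice that carried Pdgfrb-CreERT2, a tdTomato reporter and floxed alleles of both Lats1 and Lats2. Collection was 1 week after tamoxifen. Wild-type samples with Cre and reporter (n = 2) and 1 LATS1/2 KO sample at 2 weeks are in the series and were not analysed here, so no level below is a comparison with cells that have LATS1/2. Cre follows Pdgfrb, which marks several stromal cell types. How many mice gave the cells was not stated in the labels, but columns were marked M (1983 cells) and F (2125 cells), with 0 barcodes shared between them. The paper describes dividing cells by whether Xist, a transcript of female cells, was present. In this library 438 cells held neither Xist nor Y-linked UMIs, so M and F need not be sex without error. With 1 library there is no replicate and no test: every interval is an exact 95% interval for counting error alone.

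The library held 4108 cells and 46054627 UMIs, with a median of 10726 per cell. Lats1 stood at 14.2 UMIs per 1000000 (CPM) and Lats2 at 53.5 CPM. These 3′ reads need not come from the deleted part of either gene and so do not check the deletion. Clustering without the 6 genes, the YAP/TAZ targets, Lats1, Lats2, Vegfc and sex-linked genes gave 10 clusters. Cluster 3 (693 cells) was FB4-like with 4 of 4 markers, cluster 7 (204 cells) FB5-like with 6 of 6, cluster 8 (76 cells) SMC-like (smooth muscle) with 6 of 6 and cluster 10 (45 cells) vFB3-like with 5 of 5. FB4 cells are Ackr4-expressing fibroblasts, FB5 cells express Foxl1 and Bmp5, and vFB3 cells express Tacr1 and P2rx1. Bmp5 was highest in the FB5-like cluster (501 CPM). Foxl1, at 12.5 CPM there, was higher in the SMC-like (25.2 CPM) and vFB3-like (17.2 CPM) clusters and in cluster 6 (14.8 CPM). Clusters 1, 2, 4, 5 and 6 (750, 718, 677, 546 and 330 cells) were named by no list, and clusters 2 and 6 had 3 of the 5 vFB3 markers each. Their leading genes were Il1b and Vwc2 for cluster 1, Tex14 and Sertm1 for cluster 2, Cyr61 and Gadd45g for cluster 4, Cxcl10 for cluster 5 and Agt and Lrrc55 for cluster 6. Cluster 9 (69 cells) had all 7 mural cell markers, Notch3 at 570 CPM among them. Its 10 leading genes held the interstitial cell marker Ano1 and none of those 7, so the naming rule left it unnamed. The other interstitial markers were not counted there: Kit was in 4.35% of cells, and Etv1 at 21.1 CPM against a median of 20.2 CPM elsewhere. The cells of cluster 9 were also shallow, with a median of 6793 UMIs. Of the immune, endothelial, epithelial, glial and mesothelial markers, the highest level was that of Lyz2, at 55.3 CPM in the FB5-like cluster, and Ptprc and Epcam were at or under 1.69 CPM in all 10 clusters.

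Promoter sequences are given for the 3 of the 6 genes that hold a short motif of the pathway's transcription factors. The 250 bases before the RefSeq transcription start (build GRCm38.p6) were searched on both strands for CATTCC, the core of the element bound by TEAD factors. A window was found for 5 of the 6 genes, all but Limd1. The motif was found 4 times in the Wtip window, 2 times in the Ajuba window, 1 time in the Amotl2 window and 0 times in those of Amot and Amotl1. Of all 32851 windows of that length, 12.6% held it at least 1 time, 1.02% at least 2 times and 4 windows, Wtip's included, at least 4 times. The matches overlap no other motif searched, since this was the only one. They were looked for after the levels had been seen. A match describes the letters and not a binding site. The Wtip and Ajuba windows, on the minus strand, are given 5′ to 3′ with the motif in capitals (GGAATG is CATTCC read on the other strand).
Wtip, chr7:34133269-34133518: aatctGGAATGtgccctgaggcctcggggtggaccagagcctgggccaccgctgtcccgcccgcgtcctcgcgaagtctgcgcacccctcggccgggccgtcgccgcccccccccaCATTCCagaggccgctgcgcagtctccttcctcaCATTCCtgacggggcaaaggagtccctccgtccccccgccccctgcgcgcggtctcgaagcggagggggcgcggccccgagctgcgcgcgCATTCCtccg
Ajuba, chr14:54577662-54577911: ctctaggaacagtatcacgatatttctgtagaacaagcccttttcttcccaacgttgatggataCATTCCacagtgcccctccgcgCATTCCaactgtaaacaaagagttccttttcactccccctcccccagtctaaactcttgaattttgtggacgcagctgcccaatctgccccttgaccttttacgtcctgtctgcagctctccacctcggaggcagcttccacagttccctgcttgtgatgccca
The Wtip matches start 245, 134, 100 and 10 bases before the transcription start and those of Ajuba 186 and 164 bases before it. The Amotl2 match, chr9:102717739-102717744 on the plus strand, starts 65 bases before the RefSeq start and lies in an annotated Amotl2 exon and UTR, so only 30 bases around it are given.
Amotl2: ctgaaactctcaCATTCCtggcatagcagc

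In the GENCODE M21 annotation, Amotl2 spans chr9:102716672-102733418 on the plus strand, Ajuba chr14:54567472-54577558 and Wtip chr7:34109543-34133268 on the minus strand. Amotl1 spans chr9:14541966-14645056 and Amot chrX:145446425-145505181, both on the minus strand, and Limd1 chr9:123478706-123521552 on the plus strand. No exon of another gene touched the 3′ end of any of the 6, where the reads of this kit are expected to lie.

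The angiomotins each had a pattern of their own. Amotl2 stood at 282 CPM in cluster 4 (95% interval 270 to 294) and at 208, 206 and 194 CPM in clusters 9, 10 and 2. It was at 160 CPM in the FB4-like, 148 CPM in the FB5-like cluster, 78.1 CPM in cluster 5, 57.2 CPM in cluster 6, 53.4 CPM in cluster 1 and 43.8 CPM in the SMC-like cluster (30.2 to 61.6). Cluster 4 was thus above all others, whereas clusters 9, 10 and 2 could not be told apart as neighbours in that order, nor could the FB4-like and FB5-like clusters, nor 6, 1 and the SMC-like cluster. Its highest level was 6.43 times its lowest (4.57 to 9.37). Clusters 4 and 2 held 31.4% and 24.4% of all Amotl2 UMIs, against 16.7% and 18.9% of the UMIs of all genes.

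Amotl1, which shares the angiomotin domain and the YAP-binding motifs, had another order. It was highest in the FB5-like cluster, at 176 CPM (160 to 194), and lowest in cluster 2, at 50.5 CPM (45.9 to 55.4), a ratio of 3.50 (3.05 to 4.0). Clusters 5 and 6 followed at 103 and 102 CPM, then cluster 10 at 92.9, cluster 4 at 84.3, the FB4-like cluster at 81.1, cluster 1 at 76.6, cluster 9 at 70.4 and the SMC-like cluster at 58.5 CPM. The FB5-like cluster was set apart from the next by 1.71 times, and each other step between neighbours lay within counting error. Cluster 2, the lowest for Amotl1, was thus among the higher clusters for Amotl2.

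Amot, the founding member of the family, was sparse, at 2.69 CPM over the library. The FB5-like cluster had 6.86 CPM (17 UMIs, 4.0 to 11) and the FB4-like cluster 3.73 CPM (32 UMIs), whereas clusters 1 and 2 had 1.19 and 1.49 CPM. Its 0 UMIs in the SMC-like cluster and in cluster 9 allow up to 3.99 and 5.28 CPM (3 counts), which lies below the FB5-like level and above that of most other clusters. Among clusters with more than 3 UMIs, the FB5-like level was 5.74 times that of cluster 1 (2.42 to 14.6), and no step between neighbours exceeded counting error. The ratio of highest to lowest fell below that interval at a mitochondrial share of at most 5%.

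The Ajuba-family genes were all highest in cluster 9, the cluster with mural markers. Wtip reached 602 CPM there (540 to 669), 4.44 times the next cluster. Limd1 reached 172 CPM (140 to 210), 2.19 times the next. Ajuba, after which the family is named, reached 75.7 CPM (54.8 to 102), 2.00 times the next. With 1.23% of all UMIs, cluster 9 held 9.39% of those of Ajuba, 7.90% of Wtip and 5.07% of Limd1, but 1.70% of Amotl2 and 1.03% of Amotl1.

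Below cluster 9 the LIM genes diverged. Ajuba followed with 37.8 CPM in the vFB3-like cluster, 15.8 in cluster 4, 15.3 in the FB5-like cluster, 14.5 in cluster 2 and 9.30 CPM in the SMC-like cluster. It was at 5.03, 4.38, 4.08 and 3.05 CPM in clusters 6, 5, 3 and 1. The ratio of highest to lowest, 24.8 (14.6 to 43.1), was the widest of the 6 genes. It was 57.3 in cells with 8000 to 14000 UMIs and 38.8 at a mitochondrial share of at most 5%. Wtip, which also binds LATS and sits at adherens junctions, was at 136 CPM in the FB5-like, 124 in the vFB3-like cluster, 118 in cluster 2 and 112 CPM in cluster 4. In the SMC-like cluster it was at 73.1 CPM, and in clusters 5, 3, 6 and 1 at 68.0, 65.3, 62.5 and 62.0 CPM, which did not differ as neighbours beyond counting error. Limd1, a scaffold that also recruits LATS to junctions, was at 78.7 CPM in the FB5-like cluster and between 29.1 CPM (cluster 2) and 49.6 CPM (cluster 5) in the other 8.

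**Figure D1:**
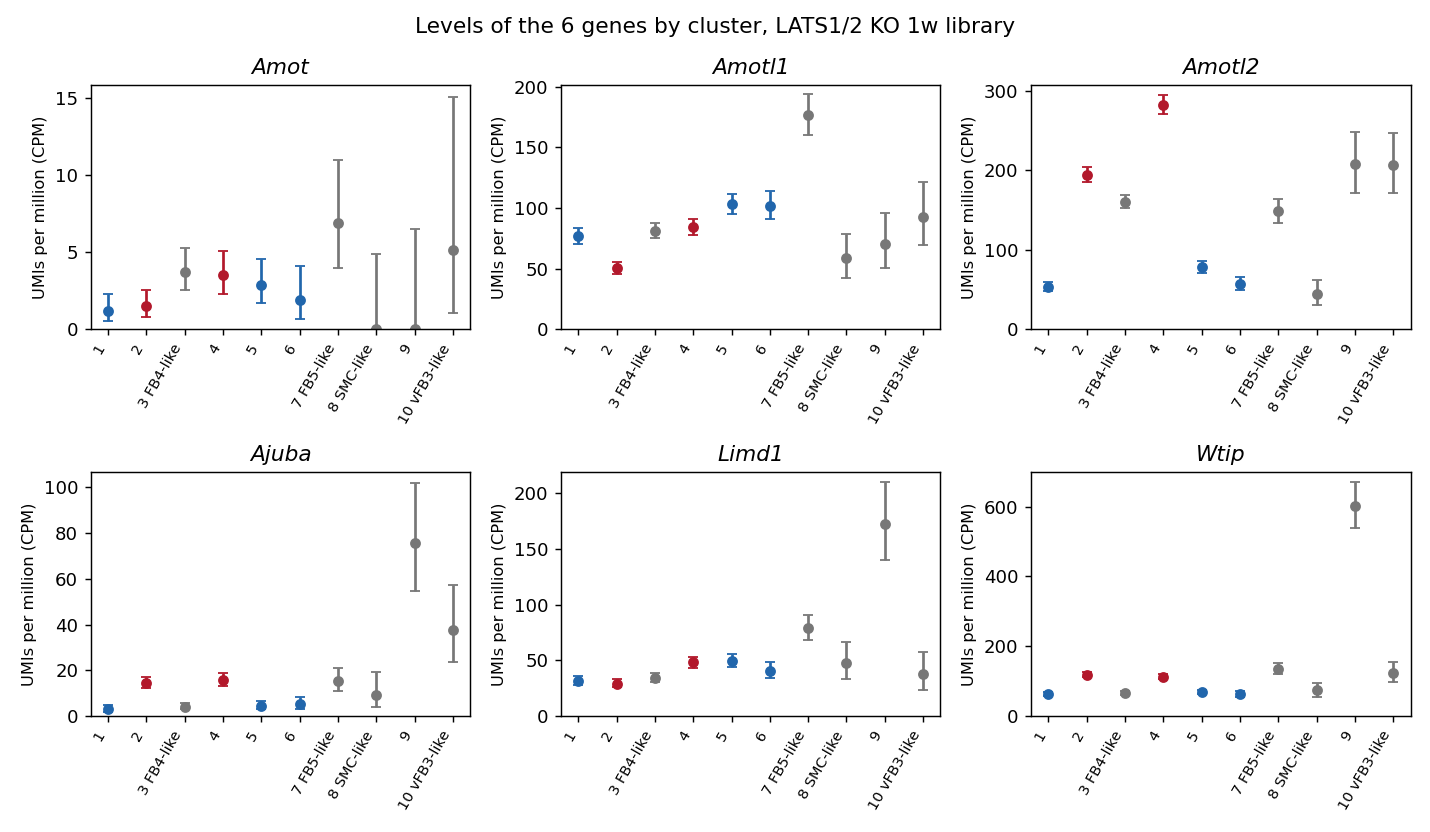
Level of each gene (CPM, linear axis) in the 10 clusters of the LATS1/2 KO 1w library, with clusters 2 and 4 in red, clusters 1, 5 and 6 in blue and the rest in grey. Points are summed UMIs and bars exact 95% intervals for counting error; Amotl2, Ajuba and Wtip are higher in the red than in the blue clusters, Amotl1 peaks in the FB5-like cluster and the LIM genes in cluster 9.

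Among the clusters that no list named, the split followed clusters 2 and 4 against 1, 5 and 6. This grouping was chosen after the levels had been seen, and the values describe it. Amotl2 stood at 235 CPM in clusters 2 and 4 and at 62.9 CPM in clusters 1, 5 and 6, a ratio of 3.74 (3.50 to 4.01). Ajuba stood at 15.1 and 3.90 CPM, a ratio of 3.87 (2.93 to 5.17), and Wtip at 115 and 64.2 CPM, a ratio of 1.79 (1.66 to 1.94). Limd1 did not follow, with 38.1 and 39.6 CPM and a ratio of 0.962 (0.861 to 1.07). Amotl1 went the other way, with 66.3 and 90.8 CPM and a ratio of 0.730 (0.675 to 0.790). For Amot, at 2.43 and 1.92 CPM, no difference was detectable. Thus 2 of the 6 genes, Amotl2 and Ajuba, were at least 2-fold higher, against 2.74% of the 12385 genes with 50 UMIs or more, and 0 of the 6 were at least 2-fold lower, against 3.53%.

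The M and F columns gave the same directions. For Amotl2 the ratio was 4.42 in the M columns and 3.18 in the F columns, for Ajuba 4.70 and 3.26, for Wtip 1.84 and 1.78, for Limd1 0.956 and 0.973 and for Amotl1 0.737 and 0.746. M columns gave 246 of the 718 cells of cluster 2 and 316 of the 677 of cluster 4, against 356 of 750, 348 of 546 and 228 of 330 in clusters 1, 5 and 6; their part in the differences between clusters was not tested. At a finer clustering (resolution 1.0) the ratio was 2.30 for Amotl2 and 2.29 for Ajuba.

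Other genes of the pathway gave a background for this split. Of 18 measured YAP/TAZ targets, 4 were at least 2-fold higher in clusters 2 and 4 (Cyr61, Ctgf, Crim1 and Myof) and 0 lower, with a median log2 ratio of 0.25 against -0.04 for all genes. Crim1, a transmembrane protein that binds BMPs, had 128 against 36.6 CPM. Of 7 coactivators and partners, Tead1 (146 against 66.2 CPM) and Vgll3, a TEAD cofactor (102 against 27.0 CPM), were at least 2-fold higher. Of 14 kinases and scaffolds only Frmd6, a FERM-domain protein, was (276 against 114 CPM). No gene passed 2-fold either way among 10 junction partners of angiomotins, 7 enzymes that turn angiomotins over, 3 zyxin-family LIM relatives, 5 partners of Ajuba-family proteins or 7 immediate early genes. For the immediate early genes this pools unlike clusters. Their summed level was 487 and 5870 CPM in clusters 2 and 4, and 2185, 9346 and 1168 CPM in clusters 1, 5 and 6. Lats1 was at 10.2 against 17.3 CPM and Lats2 at 72.6 against 38.8 CPM. Vegfc, the lymphatic growth factor, was at 228 against 42.6 CPM.

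Clusters 1, 2, 4, 5 and 6 were also split at the median of their summed level of immediate early genes (Fos, Jun and others). These can rise with tissue dissociation, though the paper also reports stromal cells with Fosb in tissue that was not dissociated. On each side of the median the cluster with the highest was set over that with the lowest target score, the mean standardised level of 15 YAP/TAZ targets. Cluster 1, which had the lowest score of the 5 (-0.135), was itself the median (2185 CPM) and so entered neither pair, and cluster 9 was kept out as it had mural markers. Clusters with high immediate early levels gave the pair 4 over 5. Amotl2 was 3.61 times higher in cluster 4 (3.27 to 4.0), Ajuba 3.62 times (2.35 to 5.75) and Wtip 1.65 times (1.46 to 1.86). Limd1 had a ratio of 0.972 (0.832 to 1.14), Amotl1 of 0.818 (0.732 to 0.915) and Amot of 1.22 (0.643 to 2.39). Here 2 of the 6 were at least 2-fold higher, against 3.48% of all genes, and 0 lower, against 3.45%. For Ajuba the ratio was 8.01 (3.84 to 19.3) in the M columns and 1.88 (1.09 to 3.39) in the F columns, where it did not reach 2-fold.

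Clusters with low immediate early levels gave the pair 6 over 2, and between these clusters Amotl2, Ajuba and Wtip went against the score. This rests on cluster 1 being left out: cluster 6 stood close to cluster 1 in Amotl2 (57.2 and 53.4 CPM) and Wtip (62.5 and 62.0 CPM). Cluster 2 over 1, chosen after the levels had been seen, went with the score for Amotl2 (3.64, 3.26 to 4.07), Ajuba (4.73, 3.02 to 7.74) and Wtip (1.90, 1.71 to 2.13). Limd1 had a ratio of 0.93 (0.776 to 1.12) and Amotl1 of 0.659 (0.581 to 0.747). Amotl1 did not keep that direction without immediate early genes in the clustering. Amotl2 and Ajuba were at least 2-fold higher, against 3.96% of all genes, and no gene of the 6 at least 2-fold lower, against 5.77%. Clusters 2 and 1 were not matched for immediate early genes, all 7 of which were at least 2-fold lower in cluster 2 (487 against 2185 CPM summed). Cluster 6 had a higher mean score than cluster 2 (0.0285 against -0.0351). Yet in cluster 6 over 2 Amotl2 had a ratio of 0.294 (0.251 to 0.343), Ajuba of 0.348 (0.193 to 0.587) and Wtip of 0.530 (0.453 to 0.617). Amotl1 was 2.02 times higher in cluster 6 (1.74 to 2.33) and Limd1 1.39 times (1.12 to 1.73). Of the 18 targets, Igfbp3 alone was at least 2-fold higher in cluster 6 (964 against 415 CPM) and Crim1 alone at least 2-fold lower (44.3 against 111 CPM). The median gene was also 0.19 higher on the log2 scale in cluster 6. At least 2-fold higher were 1 of the 6 genes, against 8.88% of all genes, and at least 2-fold lower 2 of the 6, against 3.75%. At resolution 1.0 the Amotl2 ratio became 1.14 and the Ajuba ratio 1.10, so that this pair did not keep its direction for either. Without immediate early genes in the clustering, Limd1 went to 0.977 and Amotl1 to 1.36, so that Limd1 lost its direction and Amotl1 its 2-fold difference. Cluster 6 was itself higher in immediate early genes (1168 against 487 CPM), with 5 of 7 at least 2-fold higher, and their part in these ratios was not tested.

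**Figure D2:**
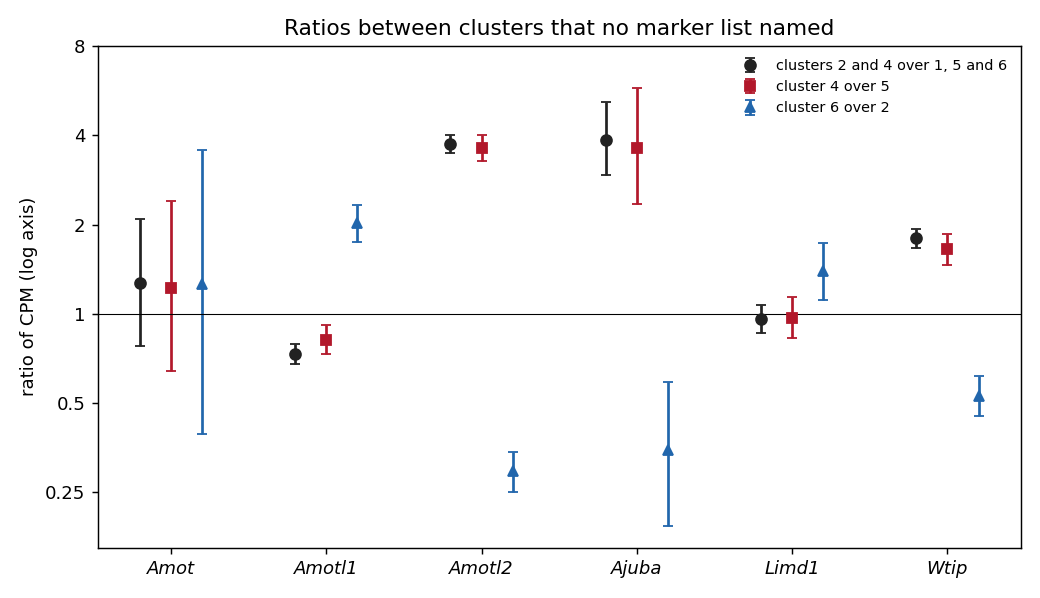
Ratio of CPM (log axis) for each of the 6 genes in clusters 2 and 4 over 1, 5 and 6 (black circles), cluster 4 over 5 (red squares) and cluster 6 over 2 (blue triangles), with exact 95% intervals for counting error. Amotl2, Ajuba and Wtip lie above 1 in the first 2 and below 1 in the third comparison; Amotl1 does the reverse.

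In cluster 9 against all other cells, 3 of the 6 genes were at least 2-fold higher, against 12.1% of all genes. Ajuba had a ratio of 8.29 (5.91 to 11.4), Wtip of 6.86 (6.13 to 7.67) and Limd1 of 4.27 (3.45 to 5.24). Amotl2 had a ratio of 1.39 (1.15 to 1.66) and Amotl1 of 0.835 (0.596 to 1.14). Among the genes at least 2-fold lower, 11.7% of all, Amot was listed with 0 UMIs, which is within the limit given above. The M and F columns gave 7.04 and 6.73 for Wtip, 4.0 and 4.48 for Limd1 and 11.1 and 6.51 for Ajuba, but 1.91 and 1.08 for Amotl2. Among the junction partners of angiomotins reported here, Vcl (vinculin, 311 against 68.1 CPM), Cdh2 (N-cadherin, 73.9 against 0.857 CPM) and Mpp5 were at least 2-fold higher and Cdh11 was lower (51.0 against 187 CPM). Cdh2 held 81 UMIs in the library and met the UMI minimum for counts of 2-fold differences only through those of cluster 9. The YAP/TAZ targets divided, with Ctgf, Asap1, Crim1, Fjx1 and Arhgef17 at least 2-fold higher and 5 at least 2-fold lower. Of 7 immediate early genes, 5 were at least 2-fold higher there. The part of these, of the mural markers and of depth in the LIM gene levels was not tested.

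In the FB5-like cells against all others, 2 of the 6 genes were at least 2-fold higher, against 6.61% of all genes, and 0 at least 2-fold lower, against 12.5%. These were Amotl1, with a ratio of 2.24 (2.02 to 2.47), and the sparse Amot, with 2.79 (1.57 to 4.69). Limd1 reached 1.97 (1.69 to 2.29), Ajuba 1.59 (1.11 to 2.22) and Wtip 1.48 (1.32 to 1.65), and Amotl2 stood at 0.983 (0.883 to 1.09). The Amotl1 ratio was 2.15 in the M and 2.32 in the F columns. The Amot ratio was 3.49 (1.71 to 6.55) in the F columns but 1.89 (0.588 to 4.73) on 5 UMIs in the M columns, where it did not reach 2-fold. This cluster was low in immediate early genes, 6 of 7 of which were at least 2-fold lower.

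Cell by cell, the genes were compared on 5000 UMIs drawn from every cell (thinning), for 4014 cells. The other 94 were shallower. Thinned, Amotl2 was seen in 41.2% of cells, Wtip in 34.4%, Amotl1 in 32.5%, Limd1 in 18.8%, Ajuba in 4.26% and Amot in 1.35%. Without thinning, the share of cells with a UMI was 58.4% for Wtip and 34.3% for Limd1. The mean number of the 6 genes seen in a cell was 2.58 in cluster 9, 1.85 in the FB5-like cluster, 1.77 in cluster 4, 0.945 in cluster 1 and 0.747 in the SMC-like cluster.

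Amotl2 was uneven among cells of the same fibroblast type. Its variance over its mean (a Poisson count gives 1) was 1.97 in the FB4-like and 1.90 in the FB5-like cluster, and between 1.14 and 1.28 in the other 8. Of 682 FB4-like cells, 404 had 0 and 129 (18.9%) had 2 or more Amotl2 UMIs, with up to 9 in a cell. Cluster 4 had a higher mean but a value of 1.28, with 36.9% of cells at 2 or more. Wtip reached 2.16 in the 48 thinned cells of cluster 9.

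**Figure D3:**
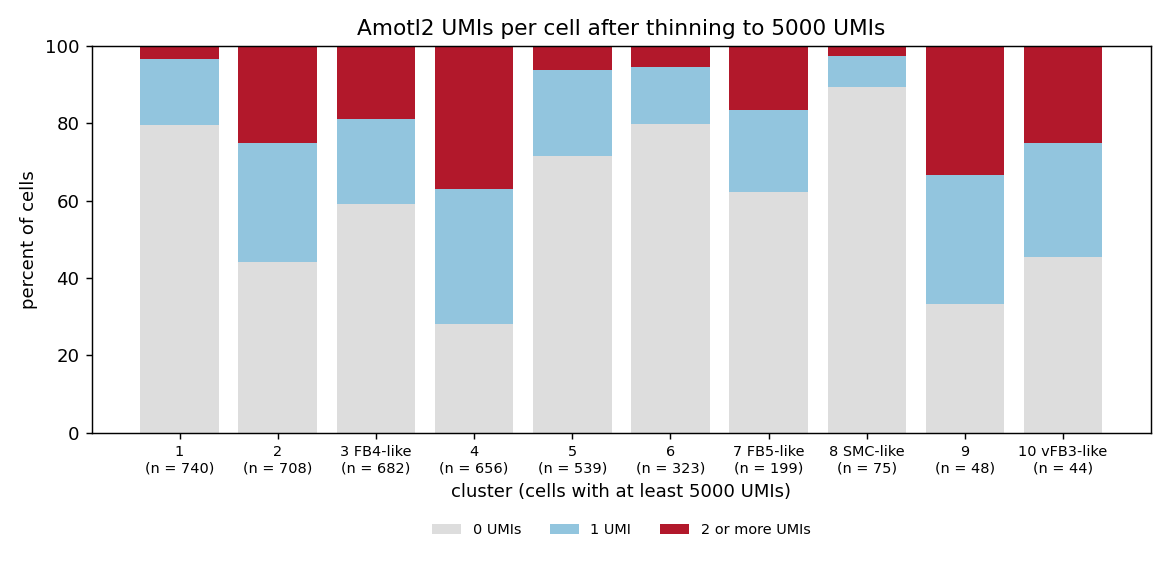
Percent of cells (linear axis from 0 to 100) with 0, 1 and 2 or more Amotl2 UMIs after thinning each cell to 5000 UMIs, by cluster, with the number of cells under each bar. Cells with 2 or more make up 36.9% of cluster 4, 18.9% of the FB4-like cluster and 3.38% of cluster 1.

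In FB4-like cells the Amotl2 count went with Ajuba. Ajuba stood at 1.24 CPM (0.454 to 2.69) in the 404 cells with 0 Amotl2 UMIs, 4.22 CPM (1.82 to 8.31) in the 149 cells with 1 and 11.2 CPM (6.81 to 17.2) in the 129 cells with 2 or more. The last is 9.03 times the first (3.50 to 27.5), on 20 and 6 UMIs. Free RNA could give up to 1.0 CPM of Ajuba in any cluster, as bounded from Y-linked UMIs in cells with Xist, so the level in cells with 0 Amotl2 UMIs lies near that bound. Wtip stood at 58.7, 61.1 and 88.7 CPM, a ratio of 1.51 (1.24 to 1.84). Limd1 stood at 35.0, 31.1 and 37.4 CPM, with a ratio of 1.07 (0.792 to 1.42), and Amotl1 at 86.5, 69.0 and 80.3 CPM, with a ratio of 0.928 (0.763 to 1.12). So Ajuba and Wtip, which were higher with Amotl2 between the unnamed clusters, were also higher with it among FB4-like cells.

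These FB4-like cells were grouped after the levels had been seen, on Amotl2 itself, so the Amotl2 difference is no result. Of the other 5 genes, 1 (Ajuba) was at least 2-fold higher, against 5.91% of all genes, and Amot was at least 2-fold lower on 3 and 22 UMIs (ratio 0.369, 0.0708 to 1.23), against 4.34%. Of the 18 YAP/TAZ targets, 6 were at least 2-fold higher and 0 lower, Crim1 among them at 119 against 27.0 CPM and Cyr61 at 675 against 196 CPM. Vgll3 was at 185 against 30.3 CPM, Tead1 at 160 against 63.2 CPM, Vegfc at 137 against 49.6 CPM, Lats2 at 65.8 against 32.3 CPM and Zyx, a LIM protein of focal adhesions, at 206 against 97.4 CPM. Lats1 was at 11.2 against 16.5 CPM (ratio 0.677, 0.393 to 1.12).

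The 4 FB4 markers were all counted in the cells with 2 or more Amotl2 UMIs, at unequal ratios to the cells with 0. Ackr4 was at 636 against 513 CPM (ratio 1.24, 1.16 to 1.33) and Cd81 at 599 against 550 CPM (1.09, 1.01 to 1.17). Grem1 was at 791 against 840 CPM (0.942, 0.886 to 1.001) and Cilp at 157 against 315 CPM (0.498, 0.437 to 0.566). Of the 5 leading genes of cluster 4, 4 were higher, with ratios of 4.96 (3.85 to 6.43) for Fmod, 4.4 (3.33 to 5.86) for Tnc, 3.44 (3.16 to 3.75) for Cyr61 and 1.62 (1.5 to 1.74) for Gadd45g, and Dkk2 was lower (0.721, 0.577 to 0.894). Their part in the Ajuba and Wtip levels was not tested. Median depth was 13020 against 11642 UMIs, and 0.775% against 0.495% of the cells were among the 4% with the highest doublet scores. M columns made up 31.8% against 51.7% of the cells. Within them the Ajuba ratio was 12.6 (2.26 to 128) and the Wtip ratio 1.60, and within the F columns 6.97 (2.19 to 29.1) and 1.43. The Ajuba ratio lay between 6.60 and 12.9 when cells were restricted by depth, mitochondrial share, doublet score or sex-linked genes.

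In the FB5-like cluster Ajuba and Wtip also rose with the Amotl2 count, on fewer cells. With 0, 1 and 2 or more Amotl2 UMIs (124, 42 and 33 cells), Ajuba stood at 9.65, 25.0 and 26.1 CPM, a ratio of 2.70 (1.12 to 6.30). Wtip stood at 121, 144 and 178 CPM, a ratio of 1.47 (1.11 to 1.93), and Limd1 at 71.4, 83.2 and 97.1 CPM, a ratio of 1.36 (0.927 to 1.96). Amotl1 stood at 179, 183 and 166 CPM. The Ajuba ratio was 4.90 in the F columns but 0.509 (0.0115 to 3.8) in the M columns, where the cells with 2 or more held 1 UMI. Of the cells with 2 or more Amotl2 UMIs, 9.09% were among those with the highest doublet scores, against 4.84% of the cells with 0. Crim1 (ratio 3.26) and Vgll3 (ratio 3.09) were higher as well.

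In clusters 2 and 4, where Amotl2 was high, the intervals for Ajuba and Wtip included 1. The Ajuba ratio was 1.22 (0.771 to 1.92) in cluster 2 and 1.31 (0.829 to 2.09) in cluster 4, and the Wtip ratio 1.05 (0.902 to 1.22) and 1.04 (0.870 to 1.24). Limd1 had 1.44 (1.06 to 1.95) and 1.04 (0.802 to 1.36). In cluster 5 the Ajuba ratio was 7.21 (2.52 to 19.7), on 8 UMIs in 34 cells and 11 UMIs in 386 cells, and the Wtip ratio 1.11 (0.742 to 1.62). In cluster 6 the Ajuba ratio was 0.894 (0.0211 to 5.87), on 1 UMI in the 18 cells with 2 or more. Whether these ratios differ between clusters was not tested.

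**Figure D4:**
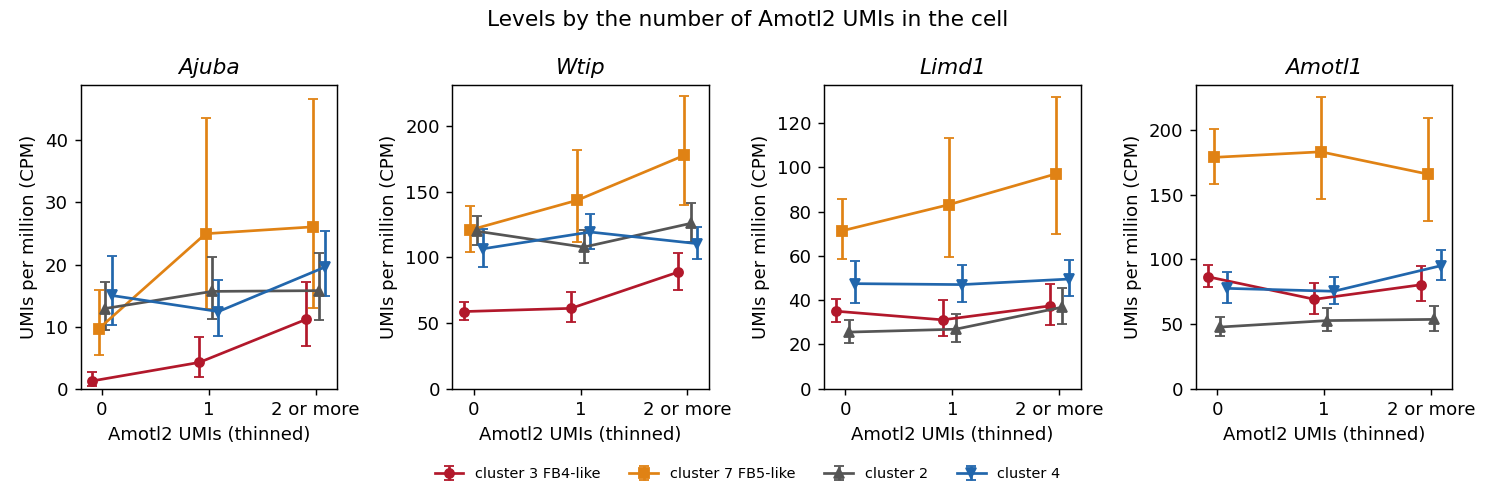
Levels of Ajuba, Wtip, Limd1 and Amotl1 (CPM, linear axes) in cells with 0, 1 and 2 or more thinned Amotl2 UMIs, in the FB4-like and FB5-like clusters and clusters 2 and 4, with exact 95% intervals for counting error. In the FB4-like cluster Ajuba goes from 1.24 to 11.2 CPM and Wtip from 58.7 to 88.7 CPM, whereas the intervals of Amotl1 overlap.

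Shares of cells gave a mixed picture. An Ajuba UMI was found in 10 of 278 FB4-like cells with Amotl2 (3.60%) and in 2 of 404 without (0.495%), a ratio of 7.27 (1.55 to 68.2). For Wtip the shares were 29.1% and 27.2%, for Amotl1 33.5% and 35.4% and for Limd1 18.3% and 16.6%. The Ajuba ratio was 4.04 (1.16 to 15.7) in cluster 5, 2.98 (0.896 to 11.3) in the FB5-like cluster and 0.567 (0.0126 to 4.41) in cluster 6, and in cluster 1 Ajuba was found in 0 of 151 cells with and 11 of 589 without Amotl2. Over the library, where differences between clusters enter, the Ajuba ratio was 2.27 (1.65 to 3.14) and the Wtip ratio 1.20 (1.08 to 1.34). Pearson correlations between pairs of genes over the thinned cells of the library went up to 0.113 (Amotl2 with Ajuba, 4014 cells). Within clusters of at least 100 cells the strongest was Amotl2 with Ajuba in the FB5-like cluster (r = 0.211, 199 cells). In counts this sparse, and with 1 library shared by all cells, such values describe a weak relation and no more.

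The target score was then used to rank cells within each cluster, and the cells with the highest scores were compared with an equal number with the lowest (1334 cells each). Amotl2 was 1.51 times higher in the former (185 against 122 CPM, 1.42 to 1.60), Ajuba 1.51 times (12.3 against 8.13 CPM, 1.20 to 1.91) and Amotl1 1.26 times (93.4 against 74.0 CPM, 1.17 to 1.37). Limd1 had a ratio of 1.05 (0.934 to 1.17), Amot of 1.07 (0.687 to 1.67) and Wtip of 0.938 (0.871 to 1.01). In the FB4-like cluster Amotl2 stood at 232 against 102 CPM (ratio 2.27, 1.97 to 2.62). In that cluster Amotl1 had a ratio of 1.55 (1.27 to 1.89). In cluster 9, Ajuba was at 146 CPM in the 16 cells with the highest and 14.0 CPM in the 16 with the lowest score (ratio 10.5, 2.99 to 56.0), whereas Wtip was at 319 against 665 CPM (ratio 0.480, 0.322 to 0.698). Wtip was higher along with Amotl2 and Ajuba in clusters 2 and 4 over 1, 5 and 6, where Amotl1 was lower. Pooled over the clusters, Wtip thus did not follow the score, whereas Amotl1 did. By cluster, the Amotl1 interval lay above 1 in the FB4-like cluster and in clusters 4, 5 and 6. In the others it included 1, as in clusters 1 (ratio 1.01) and 2 (ratio 1.10). Without thinning, at a lower mitochondrial limit and in cells of middle depth, the pooled Wtip ratio lay above 1.

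Over the 10 clusters, the genes most like each member on the log2(CPM + 1) scale, among 10383 genes with 200 UMIs or more, were the following. Ajuba was most like Luzp1 (r = 0.99), Ehd3, Asap1, 4931406P16Rik and Med25, of which Asap1 is one of the YAP/TAZ targets of the score. Wtip was most like Angpt1 (r = 0.98), Mphosph6, Mfge8, Eif1b and Edem2. Limd1 was most like Rapgef2 (r = 0.97), Impa2, Rbm4b, Opa3 and Dgkd. Amotl2 was most like Nek6 (r = 0.96), Marcks, Htra2, Ripor3 and Ywhae. Amotl1 was most like Sc5d (r = 0.92), Abhd2, Zfp410, Eif4g3 and Pdgfra, the last an FB5 marker. Amot was most like Afdn (r = 0.93), Il18bp, Cyp2j6, Nucb1 and Cbx5. For Amot this rests on 124 UMIs, with 0 in the SMC-like cluster and in cluster 9. Among the 6 genes themselves, Ajuba and Wtip were the closest pair by Pearson's r and by Spearman's rho (0.90 for both). Other pairs changed places with the measure: Limd1 and Wtip had an r of 0.84 and a rho of 0.52, Ajuba and Limd1 0.65 and 0.49, Amotl2 and Ajuba 0.65 and 0.72, Amotl2 and Wtip 0.58 and 0.64, and Amot and Amotl1 0.70 and 0.73. Amotl1 and Amotl2 had 0.03 and -0.03. Cluster 9 is the highest point for all 3 LIM genes. The 10 clusters share 1 library, and these values are descriptions.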

How the data were processed

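Stromal cells of 1 library, LATS1/2 KO 1w, were measured by droplet 3′ RNA sequencing. The authors aligned reads to mm10 with Cell Ranger (3.0.2 in the submitters' processing notes) and used Seurat (3.0.1 there) to keep cells with 1000 to 6000 genes and at most 7% mitochondrial UMIs and genes found in 3 cells or more, and took out immune (Ptprc) and endothelial (Pecam1, Cdh5) cells once an initial clustering had been run. The deposited values are the natural log of 1 plus UMIs scaled to 10000 per cell. The design had assumed summed UMIs: whole UMIs were read back from 100% of nonzero values (tolerance 0.001) and used instead.

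Cells were clustered with Seurat 5.3.0 in R 4.3.3 (2000 variable genes, of which 1982 were used, 30 principal components, resolution 0.5). UMIs were summed per cluster and given as CPM with exact Poisson intervals. Ratios carry exact conditional binomial and shares exact Clopper-Pearson intervals. Genes with 50 UMIs or more entered counts of 2-fold differences. Depth ran from 1965 to 35727 UMIs per cell. Scrublet (scanpy 1.11.5) called 8 cells (0.195%) as doublets, which is too few to rely on, so no cell was removed and its scores were used in an alternative. A cluster was named where markers of 1 list were at least 2-fold above the median of other clusters. That naming rule was set after the cluster levels had been seen and changed once, to ask for at least 2 of every 3 markers of a list, which left clusters 2 and 6 unnamed. The 6 genes, whatever their values, the lists and the markers were chosen with earlier results of these data known. Alternatives changed the resolution, regression, genes used, cell filters, depth and thinning. Scripts were tested on simulated data. Some genes of the lists and of the cluster leaders are not reported here.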

Additional observations from a re-analysis of the deposited data

How the results depend on the processing

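No paired analysis was possible because 1 library was analysed and no test was made. Of the values that answer a comparison, 324 stayed within their counting interval under an alternative, 50 moved beyond it and 3 reversed; the causes were not tested. For cluster 6 over 2, Amotl2 reversed to 1.14 and Ajuba to 1.10 at resolution 1.0, and Limd1 to 0.977 without immediate early genes; for cluster 2 over 1, Amotl1 went from 0.659 to 1.02 without them. At resolution 0.2, the highest over the lowest cluster was 2.64 for Amotl1 and 4.53 for Limd1, the low immediate early pair 1.36 for Amotl1 and 1.04 for Limd1, and Amotl1 by target score 1.38. At resolution 1.0, the low pair was 3.60 for Amot, 2.38 for Amotl1 and 0.699 for Wtip, the high pair 0.672 for Amotl1 and 3.21 for Amotl2, the highest over the lowest 2.90 for Amotl1 and Amotl2 by score 1.42. With nothing regressed out the high pair was 4.67 for Amotl2. Without immediate early genes, the highest over the lowest was 2.35 for Amotl1 and 4.08 for Limd1, the low pair 1.36 for Amotl1 and 0.219 for Amotl2, and the high pair 3.23 for Amotl2. With M and F columns integrated the low pair was 0.391 for Amot. At a mitochondrial share of at most 5%, the highest over the lowest was 1.69 for Amot and 8.90 for Limd1, and the ratio by score 2.08 for Ajuba and 1.03 for Wtip. The Amotl2 high pair was 4.38 without the 4% highest doublet scores and 4.22 without cells that held Xist as well as Y-linked UMIs. In cells with Xist alone Amotl2 was 0.346 in the low and 4.51 in the high pair. In cells with Y-linked UMIs alone, Amotl1 was 4.18 for highest over lowest and 2.36 in the low pair, Ajuba 7.42 in the high pair, Limd1 1.83 in the low pair, and by score Amotl2 was 1.41 and Limd1 0.890. In cells with 8000 to 14000 UMIs, the highest over the lowest was 10.3 for Amotl2, 57.3 for Ajuba, 8.84 for Limd1 and 7.93 for Wtip, the high pair 4.54 for Amotl2, and by score 1.37 for Amotl2 and 1.02 for Wtip. With the free RNA bound subtracted, the highest over the lowest was 4.0 for Amotl1 and 11.3 for Wtip, and Amotl2 was 0.235 in the low and 4.24 in the high pair. Thinned to 2000 UMIs, the ratio by score was 0.676 for Amot and 1.39 for Amotl2, and the FB4-like share with over without Amotl2 0.689 for Amotl1 and 0.459 for Limd1. Without thinning, Amotl2 by score was 1.81 and Wtip 1.12. No value could be had for Amotl2 highest over lowest at a mitochondrial share of at most 5%, for the Ajuba share in cells with Xist alone, for the Amot low pair in cells with Y-linked UMIs alone and for 9 cluster levels. Depth limits Amot throughout and Ajuba within clusters.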
